A study of Mus musculus with 2 samples.

Results

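The 34 genes described here make, fold and ship secreted proteins, above all the collagens, and were taken as a fixed list of names out of the 32245 gene columns of 2 single-cell RNA sequencing tables. By role they are 10 collagen hydroxylases and their partners, 2 collagen chaperones, 10 general chaperones of the endoplasmic reticulum (ER), 7 genes of ER entry, export and retrieval, and 5 transcription factors of the secretory and stress programmes. All 34 were found in both tables. The cells came from knee joints of female C57BL/6 mice at 1 month of age, and the study asked what loss of Stat3 does to postnatal chondrocytes. Control mice were Stat3fl/fl, so that their Stat3 alleles carried loxP sites but no Cre was present. Stat3KO mice, labelled Acan-Cre+/Cre;Stat3fl/fl, had the same alleles and Acan-Cre, a tamoxifen-inducible Cre driven from the aggrecan gene in cartilage cells and induced soon after birth. Each library pooled several animals, and both were depleted of CD45+, CD31+, Ter119+ and dead cells by sorting. With 1 library per genotype nothing below has a replicate or a test, and every difference describes these 2 libraries.

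Procollagen chains enter the ER through the Sec61 channel and are modified there before they fold. Prolyl 4-hydroxylases (here the catalytic P4ha2 and its partner P4hb, also called protein disulfide isomerase) stabilise the triple helix, the complex of P3h1, Crtap and the cyclophilin Ppib modifies single prolines and aids folding, and the lysyl hydroxylases Plod1, Plod2 and Plod3 prepare crosslinks and sugar attachment. Serpinh1 (HSP47) and Fkbp10 are chaperones with collagen as their client, while Hspa5 (BiP), Hsp90b1, Calr and Canx serve secreted proteins in general. Mia3 (TANGO1) loads procollagen into vesicles coated by Sec23a and Sec24d, and the receptors Kdelr2 and Kdelr3 return escaped chaperones. Xbp1, Atf4 and Ddit3 act in the unfolded protein response, Creb3l1 (OASIS) is known from osteoblasts and Creb3l2 (BBF2H7) from chondrocytes, where it drives secretory genes.

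Promoters were read because general chaperones are known to share a control element that collagen enzymes need not have. The ER stress response element, a CCAAT and a CCACG separated by 9 bases, is the site through which ATF6 and NF-Y act on chaperone genes. It was searched on both strands of the RefSeq promoters on GRCm38.p6 (250 bases before to 50 after each start), in which 28 of the 34 members were listed. P3h2, Plod2, Fkbp10, Sec61a1, Kdelr2 and Creb3l1 were not. The element was present in 6 of the 28 members, against 37 of all 27025 genes (0.137%) and 39 of all 32851 promoters (0.119%). All 6 were general chaperones (6 of 10), while it was found in 0 of 8 hydroxylases and partners, 0 of 1 collagen chaperones, 0 of 5 genes of entry, export and retrieval and 0 of 4 transcription factors. The stretches below lie upstream of the start of transcription, with 15 bases on either side of the element. The capitals mark the 5 bases at either end, which appear as CGTGG and ATTGG where the element lies on the other strand.
Hspa5 (chr2:34772010-34772058, plus strand): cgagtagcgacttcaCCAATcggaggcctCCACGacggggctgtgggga
Hsp90b1 (chr10:86705518-86705671, minus strand): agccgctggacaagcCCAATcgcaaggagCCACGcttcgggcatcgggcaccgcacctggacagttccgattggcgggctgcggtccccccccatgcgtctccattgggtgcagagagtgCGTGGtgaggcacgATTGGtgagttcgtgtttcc
Pdia6 (chr12:17266476-17266524, plus strand): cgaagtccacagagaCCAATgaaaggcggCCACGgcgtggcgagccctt
Calr (chr8:84847060-84847108, minus strand): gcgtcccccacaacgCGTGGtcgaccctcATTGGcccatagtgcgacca
Canx (chr11:50325785-50325833, minus strand): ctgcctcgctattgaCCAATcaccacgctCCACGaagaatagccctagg
Dnajc3 (chr14:118937812-118937860, plus strand): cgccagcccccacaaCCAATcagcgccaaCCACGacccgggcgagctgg
Hsp90b1 alone among them carried the element 2 times, once on each strand, and in Calr it lay on the strand opposite to the gene. A match describes letters in a window and says nothing about binding. The general chaperones without a match were Pdia3, Pdia4, Dnajb9 and Sdf2l1.

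Levels were read in 5 classes of cells. The chondrocytes were the 501 control and 332 Stat3KO cells that the authors had marked as Sox9+Col2a1+ and free of globin UMIs (unique molecular identifiers, the molecules counted). Cells with both genes above 0, whatever their globin, numbered 1013 in control and 335 in Stat3KO. The mark thus took in a smaller share of them in control. Osteoblast-like (117 and 75 cells), tendon-like (235 and 37), fibroblast-like (310 and 140) and marrow stroma-like cells (128 and 95) had at least 3 of 6 markers of that type and of no other type. These markers held none of the 34 genes and, for the 4 stromal classes, no collagen. Independent markers bore out the names in part. Dmp1 and Bglap2, Cilp2, Dpp4 and Ly6a, and Vcam1 and Lpl were each highest in their own class in both libraries, whereas Runx2 and Comp were not in the control, and Tnc and Dcn were not in either library. Median depth was 2693 to 5876 estimated UMIs per cell across the control classes and 4896 to 8595 across those of Stat3KO. Apart from the marked chondrocytes, which have none by their definition, 53.8 to 71.6% of control but 0.714 to 6.32% of Stat3KO cells held a globin UMI. Cells above 5% mitochondrial were 3.99 to 17.9% in control and 6.43 to 40.5% in Stat3KO. Stat3 itself was 142 CPM (UMIs of a gene per 1000000 UMIs) in control and 103 CPM in Stat3KO chondrocytes. The floxed exons are not given in the sources used here, and 3′ reads can persist when exons further upstream are lost, so this checks the label only in part. Only 2 cell barcodes were shared by the libraries.

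Levels are given in CPM of the UMIs summed over the cells of a class. Reads came from the 3′ ends and were not scaled for gene length, so they are compared between cells within a gene and not between genes. The 34 members together took 1.36% of the UMIs of control chondrocytes and 1.14% of those of Stat3KO chondrocytes, 0.925 to 1.15% in the other control classes and 0.969 to 1.06% in the other Stat3KO classes. In the erythroid-like cells that remained after sorting they took 0.323% in control and 0.243% in Stat3KO. Collagen mRNA varied far more, from 1.27% of UMIs in control marrow stroma-like to 16.2% in control osteoblast-like cells. The share of the members was thus similar between classes whose collagen mRNA differed widely.

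**Figure D1:**
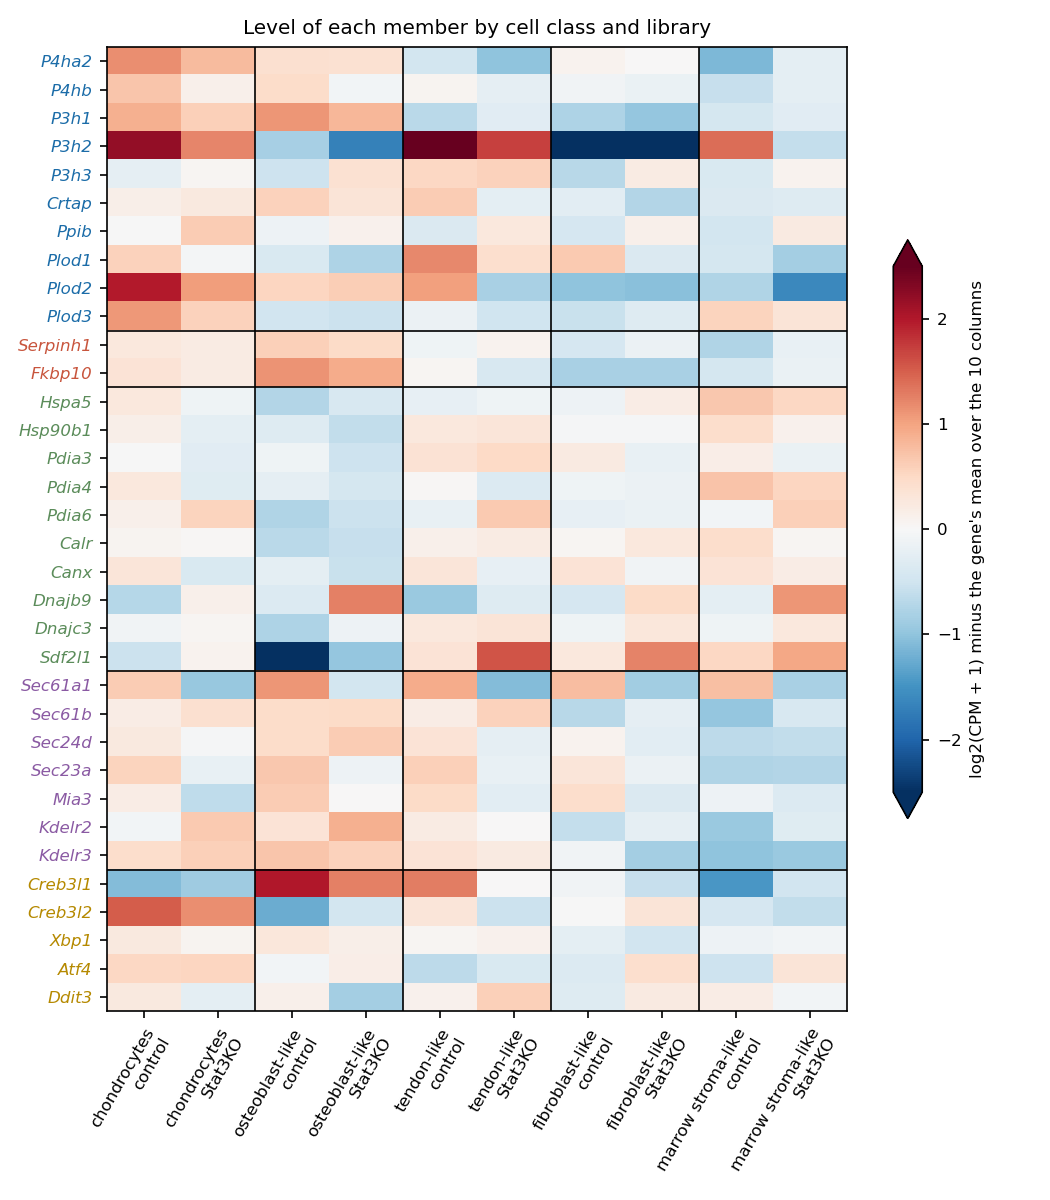
Level of the 34 members (rows, coloured by role) in the 5 cell classes of the control and Stat3KO libraries (columns), as log2(CPM + 1) minus the gene's mean over the 10 columns. Values beyond the colour range take its end colour. P3h2, Sdf2l1, Plod2 and Creb3l1 vary most over the columns, the first 2 of them on few UMIs, while Hsp90b1, Pdia3, Canx and Xbp1 stay pale.

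Plod2, P3h1, P3h2 and P4ha2, all hydroxylases, were lower in fibroblast-like and in marrow stroma-like cells than in chondrocytes. A member was called higher or lower in a class than in chondrocytes when it passed 1.5-fold the same way in both libraries, which 33 members could (at least 50 UMIs in each library over both classes, all but Sdf2l1). In fibroblast-like cells 0 members were higher, against 19.9% of all genes, and 8 were lower, against 12.6% of all genes. All 10 hydroxylases and partners were below 0 on the mean log2 of the 2 libraries, with a median of -0.81, and the median of all members was -0.46 against 0.12 over all genes. Plod2, the lysyl hydroxylase of collagen telopeptides, was 1893 CPM in control and 999 CPM in Stat3KO chondrocytes but 239 and 233 CPM in fibroblast-like cells, so the ranges of the 2 classes did not overlap. P3h2, a prolyl 3-hydroxylase, was 59.0 and 29.6 CPM in chondrocytes and listed at 0.380 and 1.01 CPM in fibroblast-like cells, with about 0 and 1 UMIs in all. P3h1, Plod3 and P4ha2 were lower too, at log2 -1.66 and -1.56, -1.64 and -0.89, and -1.08 and -0.79 in control and Stat3KO. The others were Fkbp10, Creb3l2 and Sec61b, a subunit of the Sec61 channel.

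In marrow stroma-like cells 10 members were lower (14.3% of all genes) and 0 higher (20.6%), with a median of -0.44 against 0.19 over all genes. Plod2 was 287 CPM in control and 158 CPM in Stat3KO there, log2 -2.72 and -2.66 against chondrocytes. P4ha2, P3h2, P3h1 and Plod1 were lower among the hydroxylases, and Kdelr3, Kdelr2, Sec61b and Sec24d among the 7 genes of entry, export and retrieval. Kdelr3 was 130 and 145 CPM in chondrocytes and 47.3 and 49.7 CPM in marrow stroma-like cells. Of the general chaperones, 8 of the 9 that could be read were above 0, with a median of 0.31 that lay near the 0.19 of all genes, and 0 passed 1.5-fold in both libraries. Hspa5, the main ER chaperone of the Hsp70 family, was 2579 and 2328 CPM in marrow stroma-like cells and 1955 and 1507 CPM in chondrocytes.

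In osteoblast-like cells most members were not called against chondrocytes, while Creb3l1 was higher and Creb3l2 lower, as in tendon-like cells. There, 2 members were higher (7.91% of all genes) and 6 lower (21.2%), and the median of -0.22 was close to that of all genes, -0.25. With the latter set to 0 the counts were 5 and 4, and with collagen, globin and mitochondrial UMIs left out of the total they were 4 and 4. Creb3l1, the osteoblast factor OASIS, was 392 CPM in control and 233 CPM in Stat3KO osteoblast-like cells but 45.2 and 51.8 CPM in chondrocytes. Creb3l2 went the other way, with 36.8 and 63.8 CPM in osteoblast-like cells and 254 and 200 CPM in chondrocytes. For both genes the classes did not overlap, and the log2 differences were 3.09 and 2.15 for Creb3l1 and -2.76 and -1.63 for Creb3l2. After every cell was thinned to 1000 UMIs, Creb3l1 was seen in 22.6% of control osteoblast-like cells (95% exact interval 15.3 to 31.3%) and in 5.71% of control chondrocytes (3.83 to 8.15%). Without thinning these shares were 70.1 and 19.96%. In erythroid-like control cells, which should lack the gene, the thinned share was 0 of their cells, which allows up to 0.265% by the exact interval. The thinned share of Creb3l2 was 22.4% of control chondrocytes (18.8 to 26.4%), 5.22% of osteoblast-like cells (1.94 to 11.01%) and 0.431% of erythroid-like cells. Such intervals cover counting error only.

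The other calls in osteoblast-like cells were few. Fkbp10, which serves telopeptide hydroxylation of type I collagen, was 404 and 351 CPM against 234 and 213 CPM in chondrocytes. Serpinh1 was highest here of all classes, at 1913 CPM in control and 1762 CPM in Stat3KO, but only by log2 0.33 and 0.26 over chondrocytes. P3h2 (6.39 and 3.04 CPM, on fewer than 4 UMIs in each library), Plod3, Pdia6, Plod1 and Calr completed the 6 lower members. All 7 genes of entry, export and retrieval were above 0, with a median of 0.34 and none past 1.5-fold in both libraries.

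In tendon-like cells 1 member was higher (11.3% of all genes) and 6 lower (15% of all genes), with a median of -0.08 against -0.03 over all genes. Creb3l1 was 235 and 97.4 CPM there, above both chondrocyte values. The lower members were P4ha2, Creb3l2, Plod2, P3h1, Plod3 and the stress factor Atf4. P4ha2 was 54.6 and 36.8 CPM in tendon-like cells and 170 and 131 CPM in chondrocytes. P3h2, at 74.2 and 41.6 CPM, was not lower than in chondrocytes. Only 37 Stat3KO tendon-like cells were read, and the 3 cells with most UMIs of a gene gave 44.2% of Plod2, 47.7% of Creb3l1 and 78.0% of P3h2 there.

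**Figure D2:**
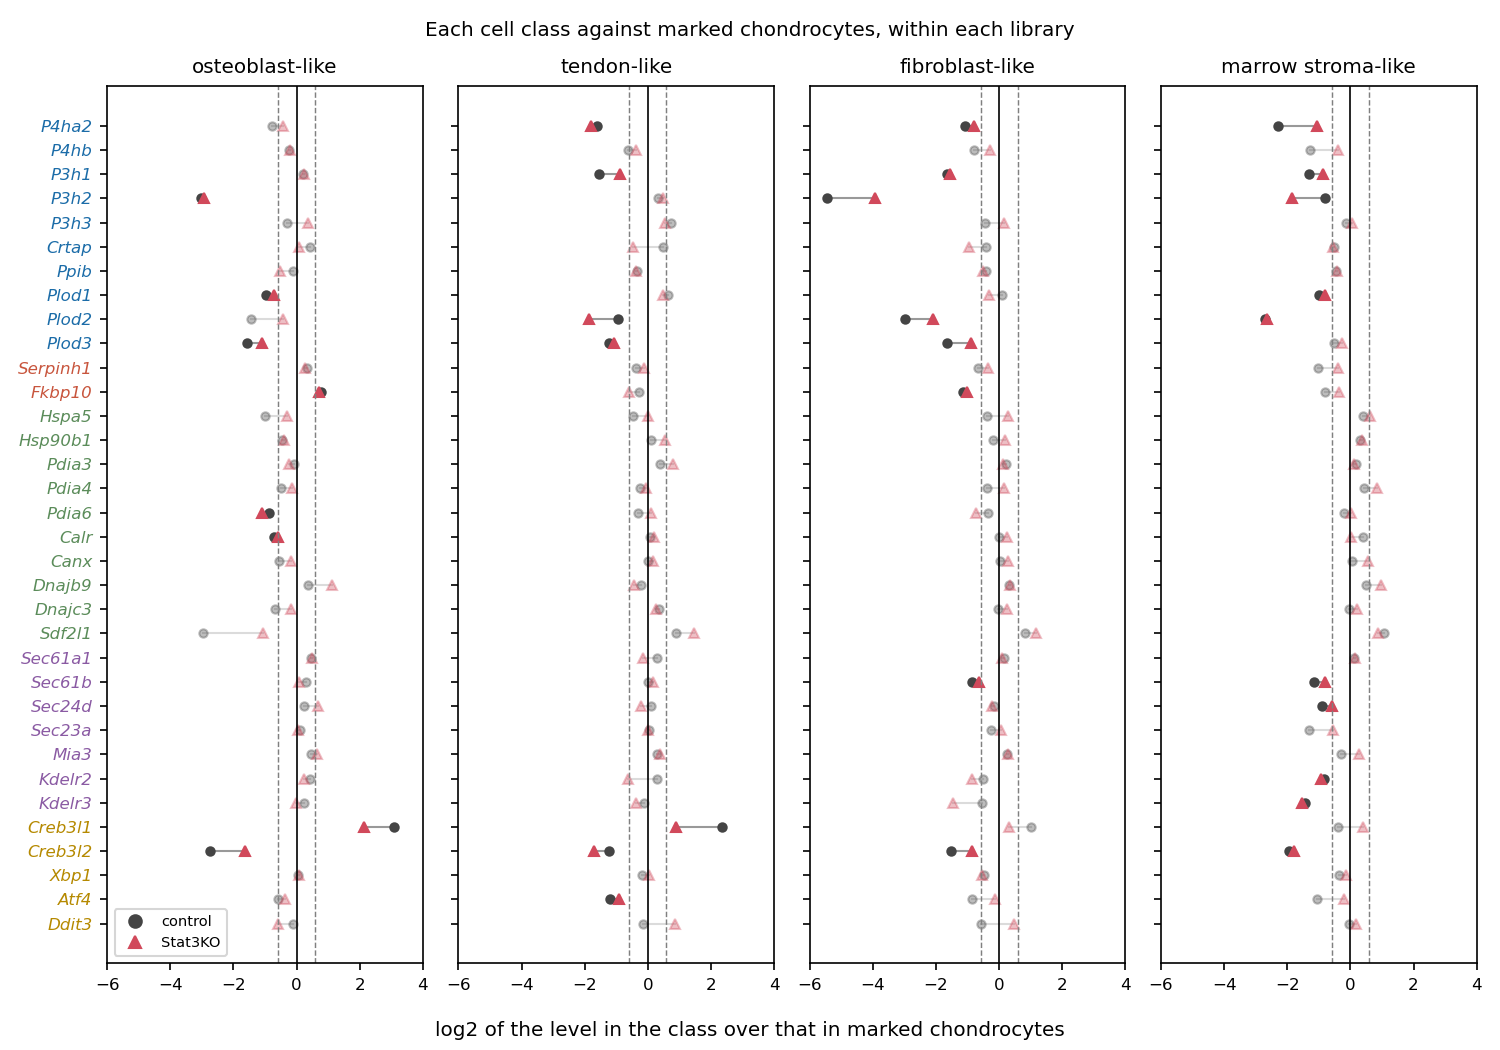
Log2 of the level of each member in osteoblast-like, tendon-like, fibroblast-like and marrow stroma-like cells over that in marked chondrocytes, within the control (circles) and the Stat3KO library (triangles). Full colours mark members past 1.5-fold the same way in both libraries, and dashed lines stand at 1.5-fold. The hydroxylases P4ha2, P3h1, Plod2 and Plod3 lie left of 0 in tendon-like and fibroblast-like cells, Creb3l1 lies right of 0 in osteoblast-like and tendon-like cells, and Creb3l2 lies left of 0 in each of the 4 classes.

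In chondrocytes, the class in which Cre was meant to act, the genotypes differed in a minority of members. Of the 34, 4 were at least 1.5-fold higher in Stat3KO, against 10.3% of the 8142 genes read, and 7 were at least 1.5-fold lower, against 21.3%. These shares, 11.8 and 20.6%, were near the background. The median was -0.28 against -0.17 over all genes, and with the median of all genes set to 0 the counts were 5 higher and 4 lower. The lower members were Sec61a1, P3h2, Plod2, Mia3, Sec23a, Canx and Plod1, and the higher ones Dnajb9, Kdelr2, Ppib and Sdf2l1. Of the 10 hydroxylases and partners, 7 were below 0 and 3 above, with a median of -0.44 against the -0.17 of all genes. Among them 3 were called lower and 1, Ppib, higher. Of the 7 genes of entry, export and retrieval, 4 were below 0 and 3 above, with a median of -0.27. Here too 3 were called lower and 1, Kdelr2, higher. Both roles thus leaned lower, but not all of their genes did.

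Plod2 was the member with the largest absolute difference among the hydroxylases, at 1893 CPM in control and 999 CPM in Stat3KO (log2 -0.92). After thinning it was seen in 79.0% of control (95% exact interval 75.1 to 82.5%) and 45.0% of Stat3KO chondrocytes (39.5 to 50.6%), and in 0.288% of erythroid-like control cells. P3h2 was 59.0 and 29.6 CPM (-0.97) and Plod1, the lysyl hydroxylase of the helix, 135 and 87.1 CPM (-0.62). Mia3 was 201 and 114 CPM (-0.81) and its coat partner Sec23a 86.4 and 51.0 CPM (-0.75). Canx, a lectin chaperone for glycoproteins, was 384 and 240 CPM (-0.68). Among the higher members, Ppib was 488 and 766 CPM (0.65), Kdelr2 152 and 251 CPM (0.72) and Sdf2l1, a BiP cofactor, 6.73 and 11.1 CPM (0.64). Sdf2l1 rests on about 21 and 34 UMIs. The collagen chaperones were within that fold, with Serpinh1 at 1521 and 1468 CPM and Fkbp10 at 234 and 213 CPM. So were the 5 transcription factors, from log2 -0.49 for Ddit3 to 0.19 for Creb3l1.

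Depth and makeup differed between the marked cells of the 2 libraries. In cells of 4000 to 8000 UMIs, an alternative chosen after the data were seen (275 control and 83 Stat3KO cells), Plod2 was -1.36 and Plod1 -0.70 (but -0.25 after thinning to 1000 UMIs), while P3h2 (-0.38), Canx (-0.23), Sec23a (-0.45), Mia3 (-0.54), Kdelr2 (0.37) and Ppib (0.51) were within 1.5-fold. The 6 osteoblast markers summed to 1318 CPM in control and 4298 CPM in Stat3KO marked cells, none at 0 in either, and the 6 chondrocyte markers to 21205 and 14281 CPM. Without the 18 control and 24 Stat3KO cells that had 3 or more osteoblast markers, Plod2 was -0.92, P3h2 -0.95 and Ppib 0.65, and Sdf2l1 was 0.50, no longer past 1.5-fold. The 16 dissociation-stress genes had a median of -0.03, with 7 higher and 9 lower.

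In osteoblast-like cells 31 members could be read, of which 4 were higher (13.3% of all genes) and 4 lower (20.7%) in Stat3KO, with a median of -0.11 against -0.13 over all genes. With the latter set to 0 the counts were 5 and 3. Dnajb9, P3h3, Creb3l2 and Dnajc3 were the higher ones. After thinning, with no minimum of UMIs asked for, Creb3l2 turned to -1.14, and with 2 osteoblast markers asked for P3h3 was 0.19. P3h3, a prolyl 3-hydroxylase that acts with lysyl hydroxylases, was 44.8 and 85.3 CPM (0.91), and Dnajc3, an ER cochaperone, 113 and 177 CPM (0.65). The lower ones were Sec61a1, Sec23a (92.6 and 53.0 CPM), Creb3l1 (392 and 233 CPM) and Mia3 (275 and 179 CPM). Creb3l1 was -0.36 after thinning, within 1.5-fold. The lysyl hydroxylase Plod2 was 700 and 743 CPM in all cells of the class and 620 and 1063 CPM (0.78) in those of 4000 to 8000 UMIs. In that window, which held 55 control and 18 Stat3KO cells, the members' median was -0.45, and Creb3l2 was 0.52 on fewer than 50 UMIs. The osteoblast markers summed to 26347 and 57971 CPM and the stress genes had a median of 0.31, and the part of either in these differences was not tested.

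In tendon-like cells 32 members could be read, with 3 higher (16.6% of all genes) and 9 lower (27.8%) in Stat3KO, and a median of -0.25 against -0.13 over all genes. Plod2 was 985 CPM in control and 273 CPM in Stat3KO (-1.85), Creb3l1 235 and 97.4 CPM (-1.26) and Crtap 172 and 92.7 CPM (-0.88). Creb3l2, P3h2, Plod1, Sec23a (0.43 after thinning, with no minimum of UMIs asked for), Mia3 and Sec61a1 were also lower. Pdia6, Ppib and Dnajb9 were higher. Collagen mRNA took 11.5% of control and 4.97% of Stat3KO UMIs in this class, and the 6 tendon markers summed to 13026 and 6726 CPM, so less of each mRNA per cell and a different makeup of the class cannot be told apart. With 4 of 6 tendon markers required, the median was 0.04, and with collagen, globin and mitochondrial UMIs left out of the total 1 member was higher and 11 lower. The median in the 37 Stat3KO cells therefore depended on where the class was bounded.

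In fibroblast-like cells 31 members could be read, with 3 higher (13.1% of all genes) and 4 lower (20.4%), and a median of -0.03 against -0.11. Plod1 was 142 and 70.2 CPM (-1.01), Mia3 241 and 139 CPM (-0.79) and Kdelr3 90.1 and 52.4 CPM (-0.77), while P3h3 was 39.9 and 74.5 CPM (0.88) and Atf4 218 and 368 CPM (0.75). Of the 16 dissociation-stress genes 13 were higher in Stat3KO in this class, at a median of 0.48, and their part in these differences was not tested. In marrow stroma-like cells only 26 members could be read, with 5 higher (18.2% of all genes) and 2 lower (18.5%), and a median of 0.05 against 0.00. Plod2 was lower, at 287 and 158 CPM (-0.86). Atf4 (193 and 347 CPM), Ppib (355 and 571 CPM), Pdia6 (237 and 374 CPM) and Kdelr2 (83.8 and 130 CPM) were higher. Kdelr2 did not keep its direction after thinning, at -0.43 with no minimum of UMIs asked for. The cyclophilin Ppib was above 0 in each of the 5 classes, by 0.23 to 0.68, but in osteoblast-like cells of 4000 to 8000 UMIs it was 490 and 213 CPM, -1.20.

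**Figure D3:**
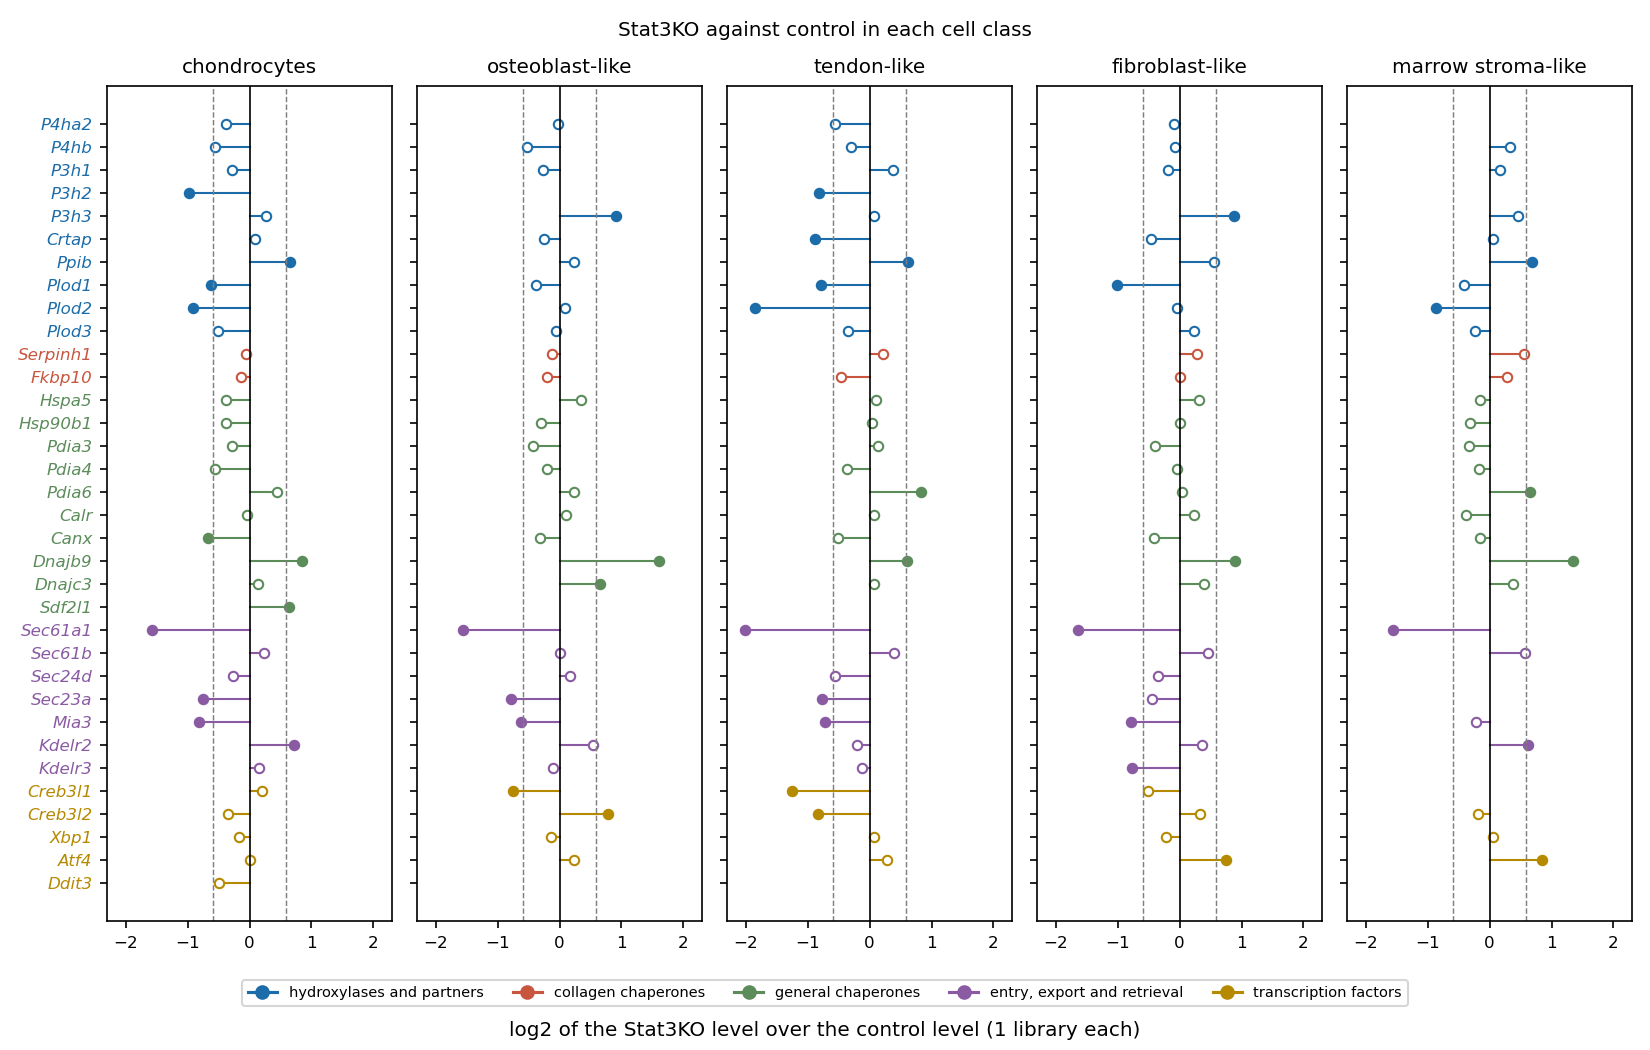
Log2 of the Stat3KO level over the control level for each member that reached 50 UMIs, in 5 cell classes, with 1 library per genotype. Filled points are past 1.5-fold (dashed lines) and colours give the role. Sec61a1 lies left of the dashed line and Dnajb9 right of it in each class, and many other members lie on both sides of 0.

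Sec61a1 and Dnajb9 were the only members past 1.5-fold in the same direction in each of the 5 classes, a comparison chosen after the data were seen. Of the 26 members read in all 5, Dnajb9 was higher (1 member, against 2.61% of 2148 genes, 56 in all) and Sec61a1 lower (1 member, against 2.28%, 49 genes). Dnajb9 (ERdj4), a cofactor of BiP induced by the Xbp1 branch of the unfolded protein response, was 126 CPM in control and 228 CPM in Stat3KO chondrocytes and 164 and 499 CPM in osteoblast-like cells. In tendon-like cells it was 109 and 167 CPM, in fibroblast-like cells 156 and 290 CPM and in marrow stroma-like cells 176 and 451 CPM. The 5 Stat3KO values spanned 167 to 499 CPM and the 5 control values 109 to 176 CPM, which overlap through the tendon-like cells. The log2 ratio was smallest there, 0.61, and largest in osteoblast-like cells, 1.60. Among all 2148 genes its mean ratio of 1.06 ranked 45 from the highest.

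The shares of cells showed the same order. After thinning, Dnajb9 was seen in 10.4% of control (95% exact interval 5.51 to 17.5%) and 40.5% of Stat3KO osteoblast-like cells (29.3 to 52.6%), and in 10.0% (7.49 to 13.0%) and 18.1% (14.1 to 22.8%) of chondrocytes. The share in erythroid-like control cells was 3.45%. Each of the 5 Stat3KO shares was above the control share, but in tendon-like, fibroblast-like and marrow stroma-like cells the intervals of the 2 libraries overlapped. In cells of 4000 to 8000 UMIs the log2 ratio was 1.17 in chondrocytes, 1.86, 1.04 and 1.504 in osteoblast-like, tendon-like and marrow stroma-like cells and 0.54, within 1.5-fold, in fibroblast-like cells. It was 0.22 in tendon-like cells without a globin UMI. In 10 of 16 alternatives, including a call at 2-fold in place of 1.5-fold, Dnajb9 was not among the members called in all 5 classes. Xbp1, which controls the gene, was 254 and 225 CPM in chondrocytes, on counts that do not separate its spliced form. Over all cells it was within 1.5-fold in every class, from log2 -0.23 to 0.06. In cells of 4000 to 8000 UMIs Xbp1 was lower past 1.5-fold in fibroblast-like (-0.84) and marrow stroma-like cells (-0.68). It was -0.50 in chondrocytes, -0.41 in osteoblast-like and 0.14 in tendon-like cells of that depth.

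Sec61a1, the pore subunit of the ER channel, was 446 CPM in control and 149 CPM in Stat3KO chondrocytes. It was 618 and 209 CPM in osteoblast-like, 547 and 135 CPM in tendon-like, 494 and 158 CPM in fibroblast-like and 484 and 164 CPM in marrow stroma-like cells. Every control value lay above every Stat3KO value. The 5 classes of a genotype come from 1 library and are not replicates, and how many of all genes separate this way was not counted. The log2 ratios ran from -1.56 to -2.01, and their mean of -1.67 ranked 5 from the lowest of 2148 genes. Sec61b, the small subunit of the same channel, was 459 and 537 CPM in chondrocytes and within 1.5-fold in each class, from 0.01 to 0.58. In cells of 4000 to 8000 UMIs it was -0.30 in chondrocytes, -0.05 in tendon-like cells and, at 548 and 164 CPM, -1.74 in osteoblast-like cells, so it had no stable direction.

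Values of Sec61a1 had features that bear on this difference. Only 10.6% of its values above 0 in control and 11.3% in Stat3KO were within 0.1 of a whole UMI, and Ddit3 had 18.1 and 18.3%, while the other 32 members had at least 91.5% whole values in Stat3KO. In control several other members were mostly not whole either, with 13.9% whole values for Hspa5, 23.4% for Calr and 25.2% for Canx, so Sec61a1 and Ddit3 stood apart in Stat3KO alone. Of 2349 genes seen in at least 300 Stat3KO cells, 15 had under 30% whole values. Its level also went down with depth. In control chondrocytes it was 403 CPM in the deeper and 537 CPM in the shallower cells on either side of the median depth, and in Stat3KO 123 and 226 CPM. The log2 of deeper over shallower cells was below 0 in all 5 classes of both libraries, from -0.39 to -1.39, where the median of all genes was -0.06 to 0.34. Stat3KO cells were the deeper ones, and within 4000 to 8000 UMIs the ratio was -1.03 to -1.28 across the 5 classes. With each cell weighted equally, it was -0.56 in chondrocytes. With values rounded up to whole UMIs it was -1.36 to -1.74. An antisense gene, Gm44170, lies over the 3′ end of Sec61a1 in Gencode M21, a release other than the authors', and was above 0 in 10 control cells and 1 Stat3KO cell. The part of the ambient-RNA correction and of this overlap in the level of Sec61a1 was not tested.

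**Figure D4:**
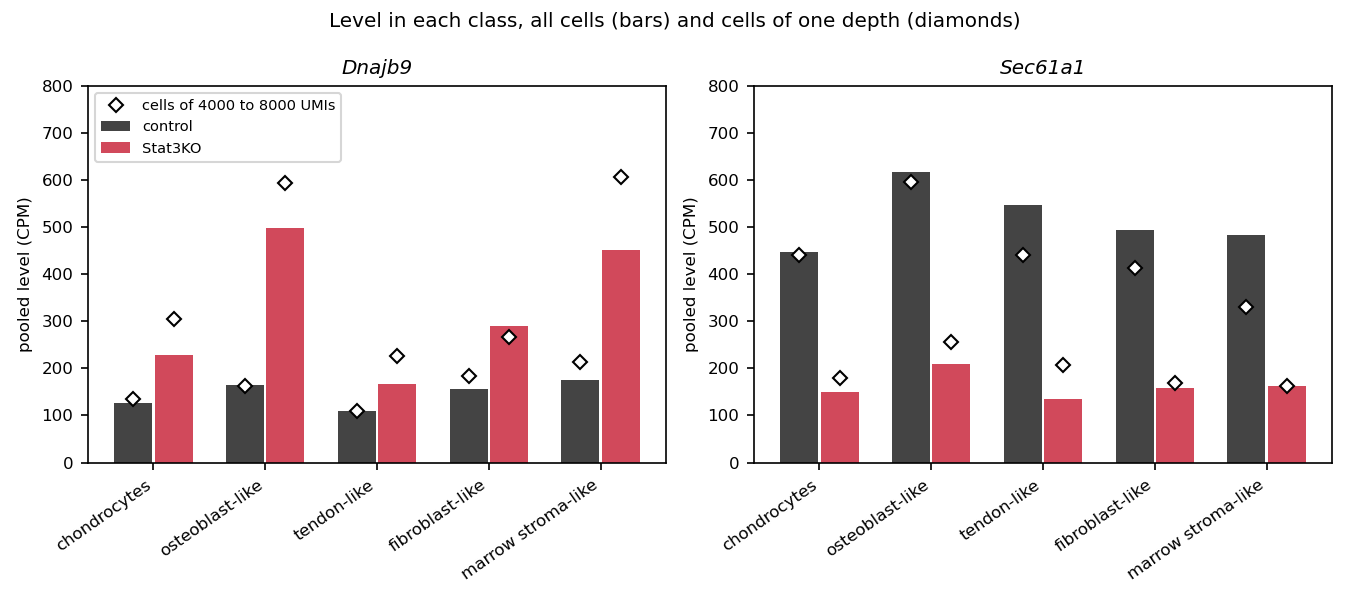
Pooled level in CPM of Dnajb9 and Sec61a1 in each cell class of the control (grey bars) and Stat3KO (red bars) library, from 0. Diamonds give the level in cells of 4000 to 8000 UMIs. For Dnajb9 the red bar is the higher of each pair, from 167 to 499 CPM, and for Sec61a1 the lower of each pair, from 135 to 209 CPM.

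The 6 chaperones with the ER stress response element did not move together between genotypes. In chondrocytes Hspa5 (1955 and 1507 CPM), Hsp90b1 (1020 and 782 CPM), Calr (640 and 625 CPM) and Canx were below 0 and Pdia6 (271 and 368 CPM) and Dnajc3 (182 and 200 CPM) above it. In osteoblast-like cells 4 of the 6 were above 0, in tendon-like and fibroblast-like cells 5, and in marrow stroma-like cells 2. Past 1.5-fold were Canx in chondrocytes, Dnajc3 in osteoblast-like cells and Pdia6 in tendon-like and marrow stroma-like cells. Dnajb9, in whose promoter the element was not matched, had the highest ratio of the general chaperones that could be read in chondrocytes, osteoblast-like, fibroblast-like and marrow stroma-like cells, and Pdia6 in tendon-like cells.

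Within the chondrocytes, cells with more Col2a1 mRNA had higher levels of P4ha2, P3h1 and Plod3, 3 of the 10 hydroxylases and partners. Cells were split at the median Col2a1 level of their own library (251 and 250 control, 166 and 166 Stat3KO cells), and CPM were recomputed without collagen genes so that the cargo could not set the total. Of 33 members read, 26 were above 0 in the Col2a1-high cells on the mean of both libraries, with a median of 0.34 against 0.01 over all genes. All 10 hydroxylases and partners were above 0 on that mean, with a median of 0.59, some of them by little, such as P3h3 (0.06) and Crtap (0.16) in control. At least 1.5-fold higher in both libraries were 3 members, against 2.85% of all genes, and 1 was lower, against 4.83%. P4ha2 was 239 against 120 CPM in control and 175 against 81.8 CPM in Stat3KO. P3h1 was 200 against 110 CPM and 157 against 78.2 CPM, and Plod3 201 against 128 CPM and 142 against 69.9 CPM. That the Col2a1-high cells were above the Col2a1-low cells in both libraries is the rule by which these 3 enzymes were called.

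Serpinh1 was higher by log2 0.56 and 0.72 and Fkbp10 by 0.33 and 0.82. The general chaperones had 5 of 9 above 0 and a median of 0.09, with Pdia6 the highest at log2 0.31 and 0.61. Hspa5 was 2005 against 2291 CPM in control and 1450.5 against 1880.1 CPM in Stat3KO, and Dnajb9 was at log2 -0.29 and -0.71. Creb3l1 was the lower member, at 33.8 against 68.4 CPM and 45.2 against 72.6 CPM. Depth moved with the split, since Col2a1-high cells had a median of 6679 against 5054 UMIs in control and 12006 against 6239 in Stat3KO. In Stat3KO 6 of the high and 18 of the low cells had 3 or more osteoblast markers, against 11 and 7 in control. The part of either was not tested beyond thinning to 1000 UMIs, which left a median of 0.25.

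The same split by Col1a1 in osteoblast-like cells gave 3 higher members of 26 read (7.26% of all genes) and 1 lower (6.83%), with 19 above 0 and a median of 0.39 against -0.00 over all genes. Sec24d, the vesicle coat subunit that carries procollagen, was 151 against 88.9 CPM in control and 210 against 73.6 CPM in Stat3KO. Plod2 was 1088 against 622 CPM and 1350 against 531 CPM, and Kdelr2 304 against 193 CPM and 520 against 231 CPM. All 6 genes of entry, export and retrieval that could be read were above 0, with a median of 0.58. The general chaperones were mostly on the other side, with 6 of 9 below 0 and a median of -0.45, and Calr was 343 against 558 CPM and 349 against 579 CPM. The members' median of 0.39 was not stable. With each cell weighted equally, and with collagen genes back in the total, it was 0.01, with 0 members higher and 4 lower. After thinning it was 0.03, over the members that still reached 50 UMIs. The part of depth in this was not tested. The mean log2 of Sec24d, Plod2 and Kdelr2 over both libraries was 0.62 or more in the alternatives of cells, scaling and filter that gave a value. Here the Col1a1-low cells of Stat3KO were the deeper ones, at a median of 9013 against 5226 UMIs.

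**Figure D5:**
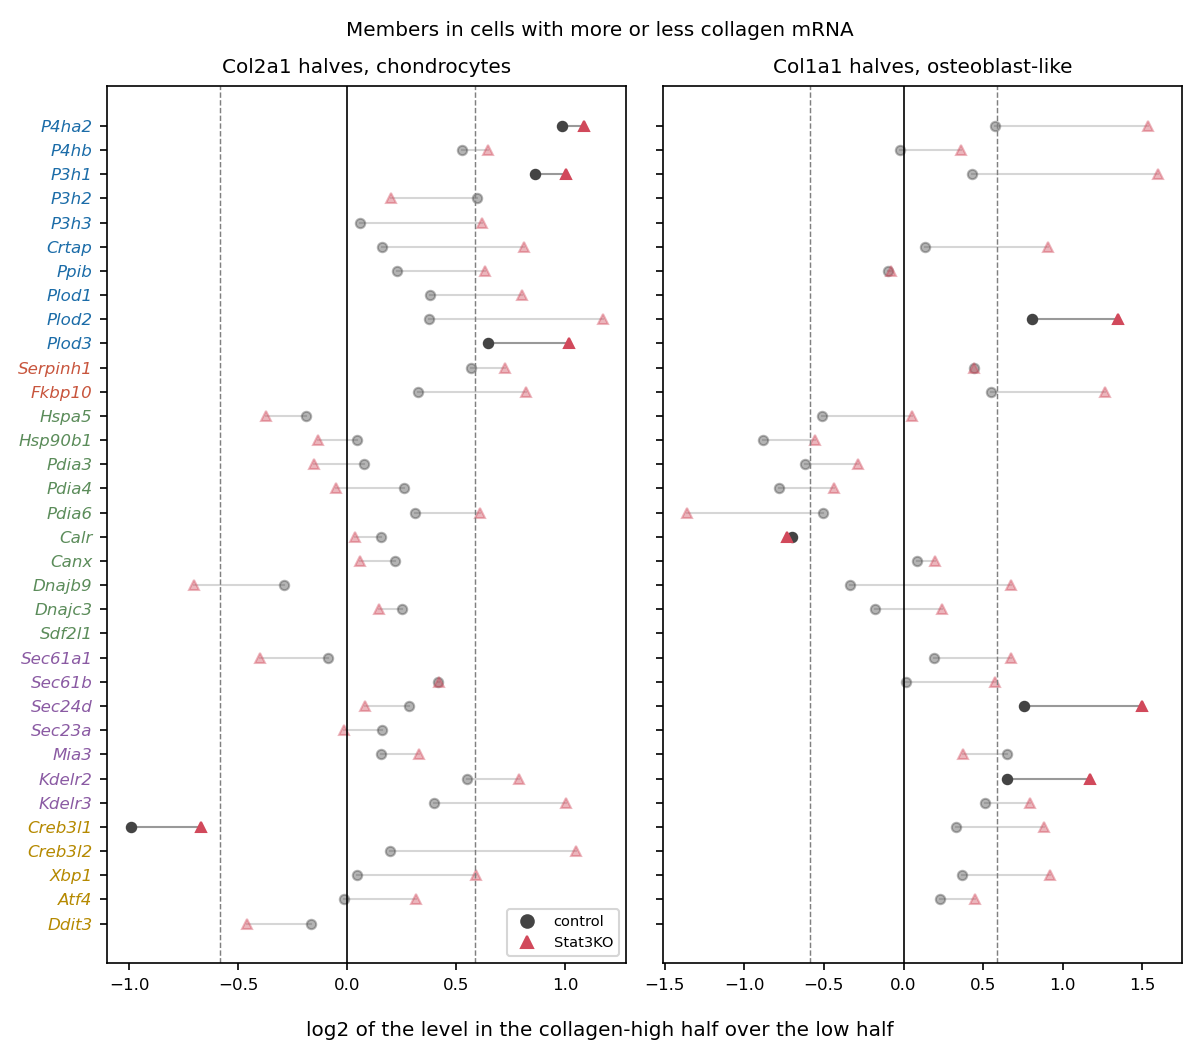
Log2 of the level of each member in cells above over cells below the median collagen level of their library, for Col2a1 in marked chondrocytes and Col1a1 in osteoblast-like cells, in control (circles) and Stat3KO (triangles). Full colours mark members past 1.5-fold in both libraries, and members without 50 UMIs in each library are left blank. The hydroxylases lie right of 0 for Col2a1. Most general chaperones lie around or left of 0 in both panels. Pdia6 lies right of 0 for Col2a1, as does Dnajb9 in Stat3KO for Col1a1.

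Other genes of these pathways, 18 of collagen modification and export and 14 of the unfolded protein response, were read in the same way. In chondrocytes 2 of 17 collagen genes read were higher (11.8%, against 10.3% of all genes) and 3 lower (17.6%, against 21.3%) in Stat3KO, with a median of -0.36, and the lowest was the prolyl 4-hydroxylase P4ha3 (25.1 and 14.6 CPM). In the unfolded protein response list 3 of 14 were higher (21.4%) and 1 lower (7.14%), with a median of -0.17. Herpud1, which takes part in ER-associated degradation and is induced by ER stress, was past 1.5-fold higher in each of the 5 classes, at 154 and 303 CPM in chondrocytes and 70.4 and 200 CPM in osteoblast-like cells. Only 9 of the 18 and 4 of the 14 genes could be read in all 5 classes, and of these it alone was higher in each, against 2.61% of all genes. The folding helper Manf, which ER stress also induces, was above 0 in each class, from 0.36 to 0.86, and past 1.5-fold in 3 of the 5. The list as a whole varied between classes. In fibroblast-like cells 1 of 10 read was higher (13.1% of all genes) and 4 lower (20.4%), with a median of -0.39 against -0.11. In tendon-like cells 2 of 5 were higher (16.6%) and 0 lower (27.8%), with a median of 0.57 against -0.13. In osteoblast-like (13.3 and 20.7% of all genes) and marrow stroma-like cells (18.2 and 18.5%) 2 of 6 were higher and 2 lower. Against chondrocytes, Colgalt2, a collagen galactosyltransferase, was lower in each of the 4 other classes, at 139 and 95.6 CPM in chondrocytes and 0 to 39.3 CPM elsewhere. Bmp1, the protease that removes procollagen C-propeptides, was the highest in osteoblast-like cells, at 500 and 391 CPM against 107 and 85.1 CPM. In the Col2a1-high chondrocytes 14 of 15 collagen genes read were above 0, with P3h4, Colgalt1 and Lman1 past 1.5-fold in both libraries.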

How the data were processed

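Droplet 3′ single-cell RNA sequencing was done on sorted knee-joint cells of 1 control and 1 Stat3KO library (4903 and 1340 cells). In Partek Flow the authors used STAR 2.7.3a on mm10, collapsed duplicate UMIs, assigned reads to Gencode genes, chose cells by the knee of the barcode plot and corrected for ambient RNA (SoupX). Gene values were deposited by the authors as log2(CPM + 1). The total of a cell, from the authors, is an estimated count that need not be whole, mitochondrial and ribosomal shares are deposited as a percent of it, and the number of expressed genes is a score per cell in the deposited tables. Although the methods name a limit of 5% mitochondrial counts, the tables also hold cells above it, and these were kept.

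Estimated UMIs were recovered as (2 to the power of the value, minus 1) times the total over 1000000. Of the values above 0, 74.9% in control and 97.3% in Stat3KO lay within 0.1 of a whole number, so no count model was used. UMIs were summed over the cells of a class in each library (214601 to 3068822) and scaled to CPM, and ratios are log2 with a pseudocount of 1 CPM. Genotype ratios needed 50 UMIs over both libraries, but under the alternatives the values of called members were read without this minimum. The members and gene lists were chosen with earlier results of these data known. Members past 1.5-fold were named, up to 6 in each direction, and of the other pathway genes the highest or lowest. Genes beyond this were named after their values were seen. Exact (Clopper-Pearson) intervals were used for shares. Doublets were called with Scrublet (scanpy 1.11.5, expected rate 0.05) in 74 control and 2 Stat3KO cells and were left out only as an alternative. The Stat3KO rate of 0.149% is low. Promoters are those of RefSeq on GRCm38.p6. The ratios were tested on simulated data. With 1 library per genotype no p-value was computed. Python 3.11.15, numpy 2.4.6, pandas 2.3.3 and scipy 1.17.1 were used.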

Additional observations from a re-analysis of the deposited data

Results flagged for a closer look

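Creb3l2 moved in opposite directions in 2 classes of the same libraries. Its log2 ratio of Stat3KO over control was 0.78 in osteoblast-like and -0.84 in tendon-like cells, a difference of 1.62 that was not tested, since there is 1 library per genotype. It rests on few molecules, about 21 and 40 UMIs in osteoblast-like and 102 and 13 UMIs in tendon-like cells, and after thinning to 1000 UMIs the osteoblast-like ratio was -1.14.

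Cells outside the 5 classes carried the same direction for both genes that were past 1.5-fold in each class. They come from the same 2 libraries, so this is not a repeat. For Dnajb9 the log2 ratio was 1.11 in mural-like cells (about 8 and 18 UMIs in 51 and 30 cells) and 0.76 in cells with chondrocyte markers that the authors had not marked (575 and 58 cells). For Sec61a1 it was -2.08 in mural-like cells, at 901 and 212 CPM, and -1.45 in the unmarked cells, at 513 and 188 CPM. In the control unmarked cells 89.9% held a globin UMI, against 3.45% in Stat3KO. The unmarked cells had a median of 3878 UMIs in control and 1811 in Stat3KO, and 12.5 and 48.3% of them were above 5% mitochondrial.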

How the results depend on the processing

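No paired analysis was possible because there is 1 library per genotype, and no replicate could be left out. Of the members' medians recomputed under the alternatives, 152 moved by less than 0.2 on the log2 scale and 10 by more. Each was taken over the members that reached the minimum of UMIs under that alternative, so thinning could also change which members were read. The median for Col1a1 in osteoblast-like cells went from 0.39 to 0.013 with cells weighted equally and collagen genes kept in the total. It was 0.029 with cells thinned to 1000 UMIs. Thinning also took the genotype median of fibroblast-like cells from -0.03 to 0.27 and the contrast of marrow stroma-like cells with chondrocytes from -0.44 to -0.18. With the median of all genes set to 0, the contrast of osteoblast-like cells with chondrocytes went from -0.22 to 0.029. In tendon-like cells the genotype median of -0.25 was 0.040 with 4 markers and -0.61 without the 3 top cells of each gene, and their contrast with chondrocytes went from -0.08 to -0.32 without those cells. Leaving out 3 of 37 Stat3KO cells takes a larger share than 3 of 235 control cells, so this alternative lowers the Stat3KO side by its construction. In marrow stroma-like cells without a globin UMI the genotype median was 0.26 in place of 0.05, and in osteoblast-like cells of 4000 to 8000 UMIs it was -0.45 in place of -0.11. Of the called members, 1074 values stayed within that limit, 235 moved and 3 reversed, all 3 after thinning: Creb3l2 in osteoblast-like cells from 0.78 to -1.14, Sec23a in tendon-like cells from -0.78 to 0.43 and Kdelr2 in marrow stroma-like cells from 0.63 to -0.43. The cause was not tested. Counts of members lower in Stat3KO spanned 1 to 9 in chondrocytes (7 as reported), 1 to 9 in osteoblast-like (4), 2 to 17 in tendon-like (9), 2 to 8 in fibroblast-like (4) and 1 to 3 in marrow stroma-like cells (2). Counts higher spanned 0 to 5 (4), 1 to 5 (4), 0 to 4 (3), 0 to 5 (3) and 1 to 7 (5). The alternatives included a call at 2-fold in place of 1.5-fold. That stricter call gave the low end of both counts in chondrocytes, osteoblast-like and fibroblast-like cells. Sec61a1 was past 1.5-fold lower in all 5 classes in each alternative except with cells weighted equally.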
